A study of Mus musculus with 24 samples.

Results

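The genes described here are Cd93 and 9 other genes that mark endothelial cells, the cells that line blood vessels. They are Emcn, Flt1, Kdr, Pecam1, Cdh5, Cldn5, Tek, Tie1 and Esam. They were taken by gene symbol, each from a probe set annotated to that symbol alone, and all 10 were found among the 19938 genes that the array measured with such a probe set. Total RNA came from primary cultures of C57Bl/6 mouse fetal cortex and mesencephalon (midbrain) at embryonic day 14, called neural stem cells by the study and kept in expansion medium. Each group was grown at 3% O2 in a gas mix of nitrogen and CO2, or at 21% O2, for 48 h or 13 d, which gives 8 groups of 3 arrays and 24 arrays in all. All groups share the strain, the age and the medium, and no transgene or sorting step is named. The question asked of the data is whether Cd93 moved with the other endothelial genes.

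Endothelial cells bind vascular endothelial growth factor (VEGF) with the receptor tyrosine kinases Kdr, the main signalling receptor, and Flt1, which binds VEGF tightly and limits what reaches Kdr. Tek is the receptor for angiopoietins and Tie1 is its partner. Cdh5 (VE-cadherin), Pecam1, Esam and the tight junction protein Cldn5 hold neighbouring endothelial cells together, and Emcn is a mucin-like glycoprotein of the endothelial surface. Cd93 is a transmembrane C-type lectin-like receptor of endothelial cells that takes part in the growth of new vessels, and it also occurs on myeloid cells. VEGF is a classic target of the oxygen sensing pathway, so low oxygen is a well known stimulus of vessel growth in brain tissue.

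Promoter sequence from RefSeq (build GRCm38.p6), from 250 bases before to 50 after the annotated start, was at hand for 6 of the 10 genes: Emcn, Flt1, Kdr, Tek, Tie1 and Cldn5. The windows of Emcn and Flt1 are shown because these genes rose with Cd93 in 1 comparison, and that of Kdr because it is the VEGF receptor that did not. Capitals mark GGAA and its reverse complement TTCC, the core letters bound by ETS factors, a family active in endothelial cells. Emcn lies at chr3:137340828-137341127 on the plus strand, Flt1 at chr5:147725962-147726261 on the minus strand and Kdr at chr5:75978406-75978705 on the minus strand.
Emcn: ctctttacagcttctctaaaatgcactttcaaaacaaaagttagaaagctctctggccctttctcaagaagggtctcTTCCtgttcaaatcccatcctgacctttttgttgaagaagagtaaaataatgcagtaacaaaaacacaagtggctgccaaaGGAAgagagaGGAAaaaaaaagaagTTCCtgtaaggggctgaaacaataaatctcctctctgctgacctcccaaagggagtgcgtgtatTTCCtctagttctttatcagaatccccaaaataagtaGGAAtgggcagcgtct
Flt1: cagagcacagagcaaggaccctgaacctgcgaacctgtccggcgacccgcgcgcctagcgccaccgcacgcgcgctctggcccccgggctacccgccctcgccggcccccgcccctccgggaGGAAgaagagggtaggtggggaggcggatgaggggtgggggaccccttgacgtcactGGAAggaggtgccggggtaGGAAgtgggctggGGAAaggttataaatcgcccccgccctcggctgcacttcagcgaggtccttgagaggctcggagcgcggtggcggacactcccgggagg
Kdr: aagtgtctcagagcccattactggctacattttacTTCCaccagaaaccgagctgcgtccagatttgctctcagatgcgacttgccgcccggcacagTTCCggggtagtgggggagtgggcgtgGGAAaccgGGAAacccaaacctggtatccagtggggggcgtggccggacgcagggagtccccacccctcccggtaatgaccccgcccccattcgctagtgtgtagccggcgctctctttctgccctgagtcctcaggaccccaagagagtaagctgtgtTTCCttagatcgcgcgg
The letters GGAA, on either strand, occurred 6 times in the Emcn window, 4 times in Flt1 and 5 times in Kdr. They occurred 9 times in Tie1, 2 times in Tek and 0 times in Cldn5. These letters are common: 96.0% of the 32851 mouse windows of this length hold them on either strand, with a median of 3. ACGTG, 1 form of the core letters of the hypoxia response element, was in 19.6% of the windows on either strand and in 0 of the 6 windows of these genes. The other form, GCGTG, was not counted. On either strand it can be read in the windows of Emcn, Flt1 and Kdr shown here, so these do not lack the core letters. All of these are letter matches in these windows only.

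Some arrays went against their labels or stood apart, which touches the results below. By correlation over all probe sets, 12 of 12 cortex arrays lay closer to the midbrain group of the other labelled time at the same oxygen. Tbr1, a transcription factor of early cortical neurons, read 6.35 to 7.03 on the cortex arrays labelled 48 h and 11.17 to 11.50 on those labelled 13 d. En2, a midbrain and hindbrain factor, read 7.26 to 9.13 in cortex labelled 48 h and 5.93 to 6.11 in cortex labelled 13 d. Cortex times are therefore given as labelled throughout, and any direction drawn from them rests on those labels. Within cortex labelled 48 h, the array numbered 1 at 3% O2 read 6.86 for the forebrain factor Emx2, against 9.07 and 8.87 on numbers 2 and 3, and 9.13 for En2, against 7.26 and 7.36. The array numbered 1 at 21% O2 correlated more closely with the 3% group (0.9925) than with its own (0.9897). The labels put the 6 midbrain 13 d arrays in array run 1 and the remaining 18 in run 2. A level of midbrain 13 d set against another group therefore cannot be told apart from the array run. The labels do not say whether replicates are separate cultures or animals, so p-values here cover the scatter from array to array, which may be technical.

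Cd93 was the member that varied most. Over the 24 arrays its log2 level covered 4.92, against 2.31 for Flt1, 1.80 for Cdh5, 1.79 for Emcn, 0.97 for Kdr and 0.28 to 0.59 for Cldn5, Esam, Tie1, Tek and Pecam1. The median probe set covered 0.72, and 0.2093% of the probe sets covered more than Cd93. Kdr, Pecam1, Cldn5, Tek, Tie1 and Esam read below the array median on every array, although the brightness of a probe set does not tell how much RNA is there, and no background level can be read from normalized values. In whole cultures, fewer cells of a type and less RNA per cell cannot be told apart.

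**Figure D1:**
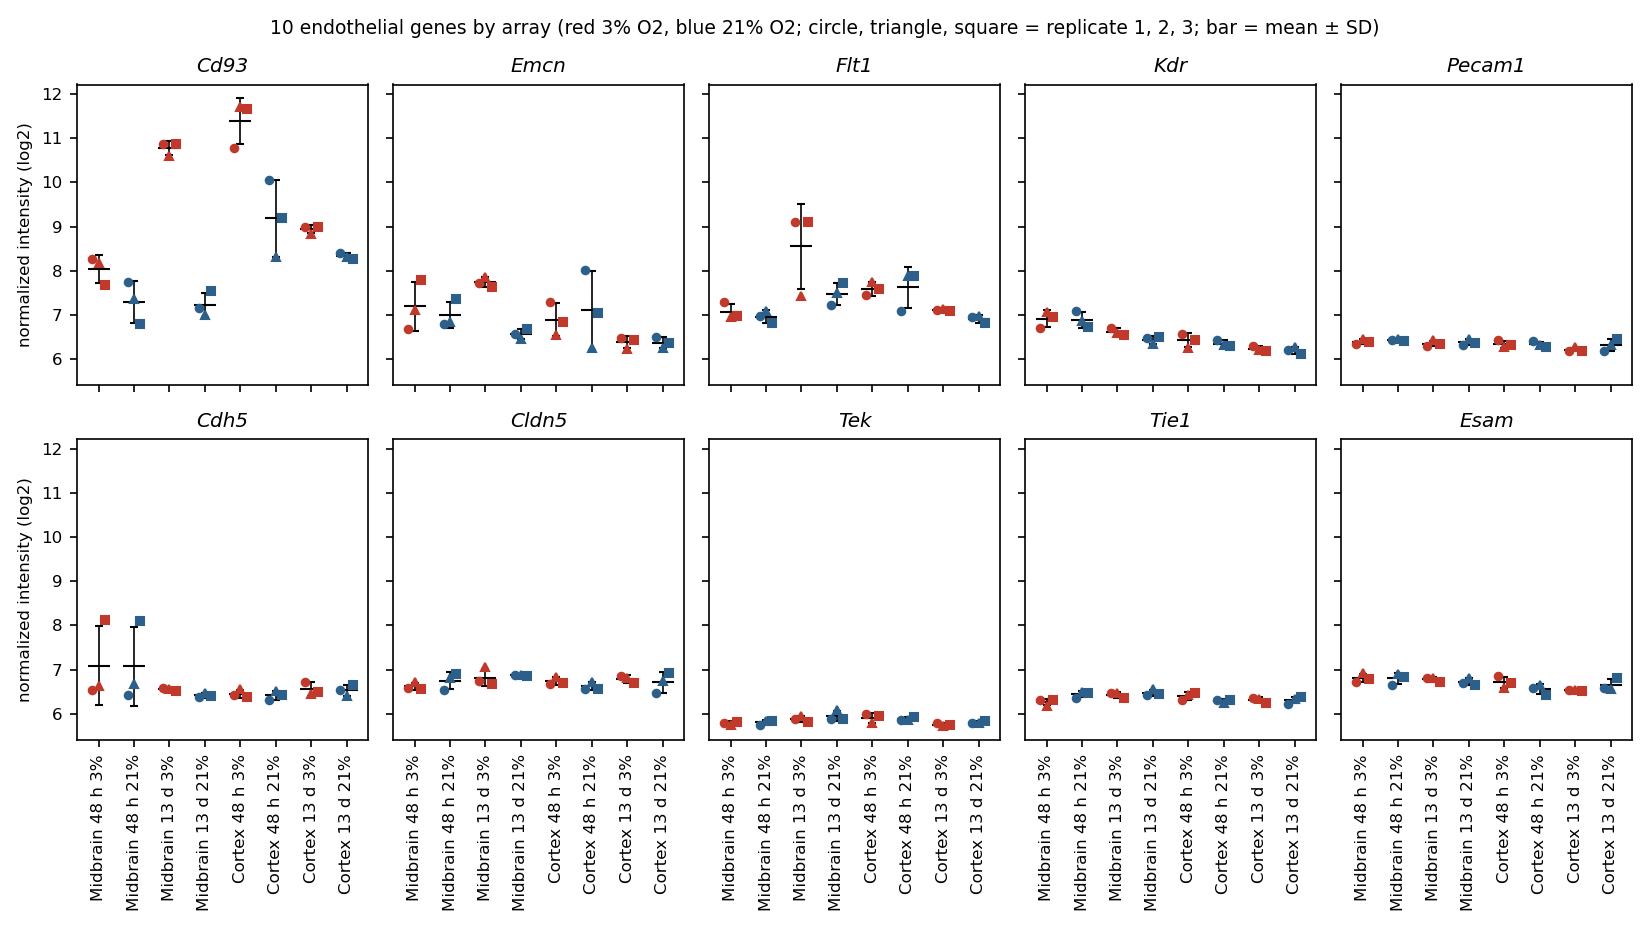
Log2 level of each of the 10 genes (y axis, deposited normalized values, the same scale in every panel) on each array by group (x axis), with red for 3% O2 and blue for 21% O2, a circle, triangle and square for arrays 1, 2 and 3, and a bar with whiskers for the mean ± SD (n = 3). Cd93 ranged from 6.80 to 11.72, whereas the 5 genes in the flattest panels (Cldn5, Esam, Tie1, Tek and Pecam1) each covered 0.59 or less.

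The Cd93 arrays fell into an order that followed neither region nor labelled time alone. On the log2 scale the highest group was cortex labelled 48 h at 3% O2, with arrays at 10.78, 11.72 and 11.66. Midbrain 13 d at 3% O2 followed at 10.88, 10.60 and 10.87. Cortex labelled 48 h at 21% O2 came next and was the most scattered group, at 10.05, 8.32 and 9.20. Both of these oxygen pairs were thus well apart, with every 3% array above every 21% array. The cortex cultures labelled 13 d read 8.99, 8.83 and 8.99 at 3% O2. Their 21% O2 arrays were at 8.40, 8.31 and 8.27, a small step down between the groups with the tightest Cd93 replicates. Lowest were the midbrain cultures at 48 h, with 8.27, 8.18 and 7.67 at 3% O2 and 7.74, 7.35 and 6.80 at 21% O2, which overlap, and midbrain 13 d at 21% O2, with 7.16, 7.00 and 7.53. Between neighbours in this order the arrays failed to overlap at 2 steps only: from midbrain 13 d at 3% O2 to cortex labelled 48 h at 21% O2, where the means differed by 1.59, and from cortex labelled 13 d at 3% to 21% O2, where they differed by 0.61. The first of these steps, like the place of midbrain 13 d in the order, cannot be told apart from the array run.

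The study compared 3% with 21% O2 within each region and time. In midbrain at 13 d, Cd93 rose by 3.55 ± 0.32 on the log2 scale (SE, n = 3 per group, adjusted p = 1.22e-07, 95% interval 2.88 to 4.22), an 11.7-fold higher signal at 3% O2. Emcn and Flt1 were the other members that passed the test there. Of the 10 genes 3 were higher and 0 lower, in a comparison in which 23.9% of all probe sets passed in either direction. The members' median difference in signal was 0.09 and that of all probe sets -0.01. For the genes whose signal changed little over all arrays, a value near 0 cannot tell whether their RNA moved. The 7 that did not pass, Kdr, Pecam1, Cdh5, Cldn5, Tek, Tie1 and Esam, differed by 0.17 or less in size.

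Cortex labelled 48 h showed the other rise of Cd93, by 2.20 ± 0.32 (adjusted p = 0.000122, 4.59-fold). It was the only 1 of the 10 genes to pass, beside 12.3% of all probe sets. The other 9 members lay between -0.21 and 0.16, and at an unadjusted p under 0.05 there were 0 of them. The share of all probe sets under that unadjusted cutoff was not counted, here or below. Such counts therefore say nothing particular about the members. Without both arrays numbered 1, which stood apart, the Cd93 difference was 2.93 ± 0.27 (adjusted p = 7.25e-07). Fitted to its own 6 arrays alone, the difference of 2.20 did not pass (adjusted p = 0.091, in a range of 6.93e-08 to 0.091 over all alternatives tried).

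In midbrain at 48 h, 0 of 10 members passed in limma, beside 1.19% of all probe sets. Cd93 differed by 0.75 ± 0.32 (adjusted p = 0.277, 95% interval 0.08 to 1.42) and Tie1 by -0.18 (adjusted p = 0.15). These were the 2 genes with an unadjusted p under 0.05, a cutoff for which the share of all probe sets was not counted. Cortex labelled 13 d had 0 of 10 passing as well, beside 0.607% of all probe sets, and 0 had an unadjusted p under 0.05. Cd93 differed there by 0.61 ± 0.32 (adjusted p = 0.745) with every 3% array above every 21% array. With those 6 arrays fitted alone, where their own narrow spread is used, the same 0.61 passed (adjusted p = 0.00186, the lowest of a range reaching 1.0).

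**Figure D2:**
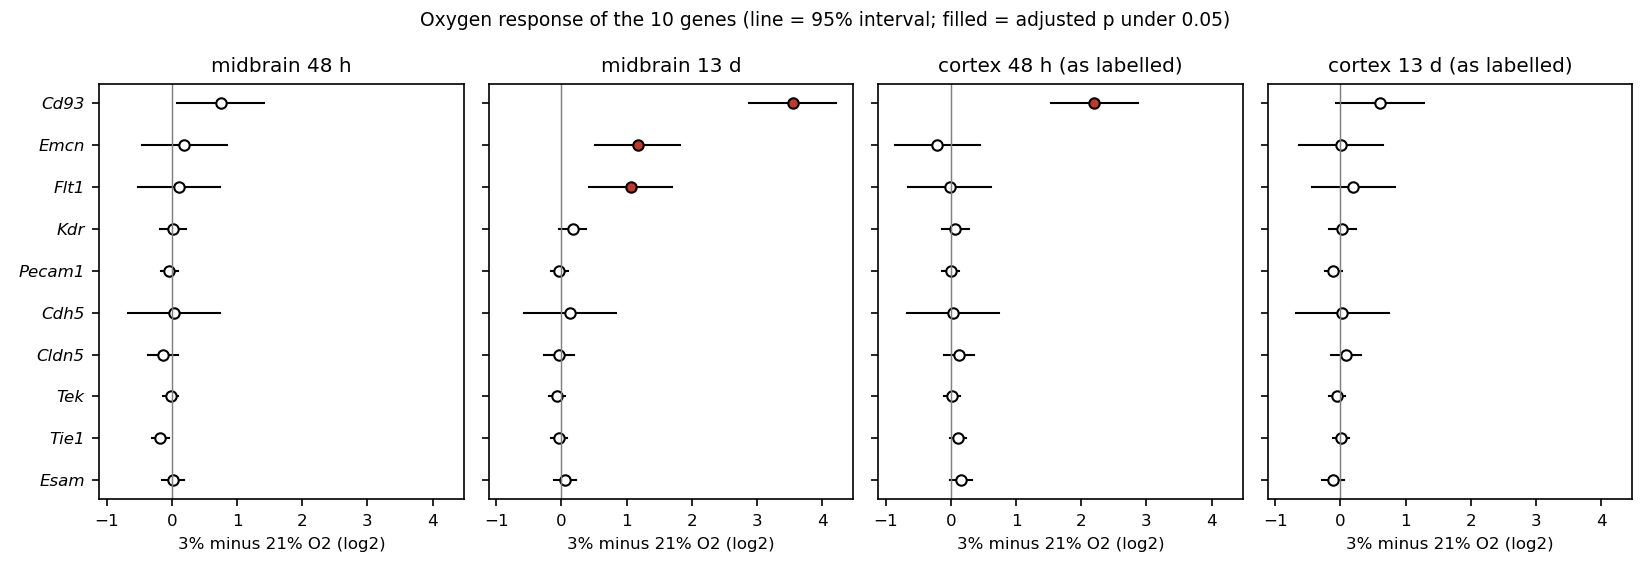
Log2 difference, 3% minus 21% O2, of each of the 10 genes (points, with the 95% interval of the limma fit as whiskers) in 4 panels for the region and labelled time, with filled points for an adjusted p under 0.05. Filled points are Cd93, Emcn and Flt1 in midbrain at 13 d and Cd93 alone in cortex labelled 48 h, and most other points lie close to 0.

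The responses themselves were then compared. The Cd93 response was larger in midbrain at 13 d than at 48 h by 2.81 ± 0.45 (adjusted p = 0.000293), the 1 member of 10 that passed beside 15.1% of all probe sets. A run effect that added equally to both oxygen levels cancels within each response, since both levels were in the same run. Any other run effect cannot be told apart from the group in each comparison of responses that includes midbrain at 13 d. Emcn gave 0.98 ± 0.44 (adjusted p = 0.154) and Flt1 0.96 ± 0.43 (adjusted p = 0.153) in this comparison. With the replicate number as a block, 2 members passed, Cd93 and Emcn, but the share of all probe sets under that fit was not counted. Midbrain at 13 d also exceeded cortex labelled 13 d for Cd93, by 2.94 ± 0.45 (adjusted p = 0.000203), again the 1 member that passed, beside 13.5% of all probe sets. With the block 2 passed again (Cd93 and Emcn), and the share of all probe sets with the block was not counted here either. Crossing the cortex times turns this into the comparison of midbrain 13 d with cortex labelled 48 h, which is described next and is the same test. There the Cd93 value was 1.35 and did not pass (adjusted p = 0.0822, in a range from 1.02e-07).

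Where both Cd93 responses were large, their difference was not shown. Between midbrain 13 d and cortex labelled 48 h 0 of 10 members passed in limma, beside 6.58% of all probe sets. At an unadjusted p under 0.05 there were 3, and for that cutoff the share of all probe sets was again not counted. They were Cd93 at 1.35 ± 0.45 (adjusted p = 0.0822), Emcn at 1.38 ± 0.44 (adjusted p = 0.0657) and Flt1 at 1.09 ± 0.43 (adjusted p = 0.148). Without the cortex arrays numbered 1, Cd93 gave 0.62 (adjusted p = 0.303) and Emcn passed at 1.13 ± 0.35 (adjusted p = 0.0394). Emcn also passed with the replicate block. The responses of cortex labelled 13 d and 48 h gave 0 of 10 members passing in limma, beside 4.13% of all probe sets, with Cd93 at -1.58 ± 0.45 (adjusted p = 0.055) and 2 members, Cd93 and Esam, at an unadjusted p under 0.05. Without the arrays numbered 1 that difference was -2.32 ± 0.35 and passed (adjusted p = 0.000294). Midbrain at 48 h against cortex labelled 48 h gave 1 lower member, Tie1, beside 5.88% of all probe sets, by -0.29 ± 0.08 (adjusted p = 0.0439, and 0.0751 with the replicate block). That call was lost when most single arrays were left out, with adjusted p from 0.00832 to 0.646 over all alternatives. Cd93 stood at -1.45 ± 0.45 (adjusted p = 0.0649) there, and at -2.18 ± 0.35 (adjusted p = 0.000476) without the cortex arrays numbered 1.

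Emcn, the surface glycoprotein, was the endothelial gene that matched Cd93 most closely in midbrain at 13 d. Its arrays read 7.73, 7.85 and 7.64 at 3% O2 and 6.56, 6.46 and 6.68 at 21% O2, with no overlap. It rose by 1.17 ± 0.31 (adjusted p = 0.00783, 2.26-fold). Emcn in cortex labelled 48 h, where Cd93 also rose, read 7.28, 6.55 and 6.83 at 3% O2 and 8.01, 6.24 and 7.05 at 21% O2. The 21% arrays there lay both above and below the 3% arrays. Over the 8 groups every neighbour in the order of Emcn levels overlapped.

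The VEGF receptors differed from each other. Flt1 in midbrain at 13 d read 9.11, 7.42 and 9.11 at 3% O2 and 7.23, 7.49 and 7.72 at 21% O2. Array 2 at 3% O2 lay within the 21% range, while arrays 1 and 3 stood well above it. Flt1 rose by 1.07 ± 0.30 (adjusted p = 0.0128, 2.1-fold), and the call was lost without array 1 or 3 at 3% O2 (0.79, adjusted p of 0.0967 and 0.095) or array 1 at 21% O2 (0.94, adjusted p = 0.0626), and in the 6 arrays alone (adjusted p = 0.12, in a range from 4.03e-07). Kdr read 6.71, 6.58 and 6.54 at 3% O2 and 6.48, 6.33 and 6.49 at 21% O2 in the same cultures. These arrays did not overlap, but the difference of 0.17 did not pass (adjusted p = 0.236). Kdr was highest in midbrain at 48 h, with arrays from 6.71 to 7.08 at 3% O2 and from 6.73 to 7.08 at 21% O2.

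The angiopoietin receptors were flat. Tek covered 0.35 and Tie1 0.37 on the log2 scale over all 24 arrays. Tie1, whose response differed between the regions at 48 h, read 6.31, 6.18 and 6.30 in midbrain at 48 h and 3% O2. At 21% O2 it read 6.36, 6.50 and 6.46. The cortex arrays labelled 48 h read 6.31, 6.42 and 6.48 at 3% O2 and 6.32, 6.24 and 6.31 at 21% O2. The midbrain arrays thus lay lower at low oxygen and most cortex arrays higher.

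Of the junction genes, Pecam1 stayed between 6.18 and 6.46 on all arrays, Cldn5 between 6.46 and 7.05, and Esam between 6.42 and 6.92. Cdh5, the adherens junction cadherin, was flat as well except on 2 arrays. It read 6.54, 6.62 and 8.12 in midbrain at 48 h and 3% O2, and 6.43, 6.68 and 8.09 at 21% O2. Both high values belong to the arrays numbered 3, and every other array of the study lay between 6.32 and 6.73. Looked for after these values had been seen, 12 probe sets with a single symbol read at least 1 higher on both number 3 arrays than the mean of the others in their group, and 0 read lower by as much. They were Dcn, Lum, Tgfbi, Kcnma1, Bgn, Apod, Cdh5, Igf2, Pdgfrb, Mgp, Fn1 and Cped1, several of which encode matrix proteins of fibroblasts. Lum, a collagen-binding proteoglycan, read 8.68 and 8.72 on those arrays and 5.60 to 5.87 on the other 4 arrays of midbrain at 48 h. Over the 24 arrays Cdh5 correlated with Lum at 0.9454, a value that rests on these 2 arrays. Of the 10 endothelial genes only Cdh5 was on that list. Emcn fell short of its cutoff of 1 but was also highest on both arrays. It read 7.78 against 6.68 and 7.11 at 3% O2, and 7.35 against 6.80 and 6.84 at 21% O2. Cd93 was lowest on the same arrays, at 7.67 and 6.80. Leaving both arrays out left 0 members passing in the oxygen comparison of midbrain at 48 h, beside 0.628% of all probe sets.

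**Figure D3:**
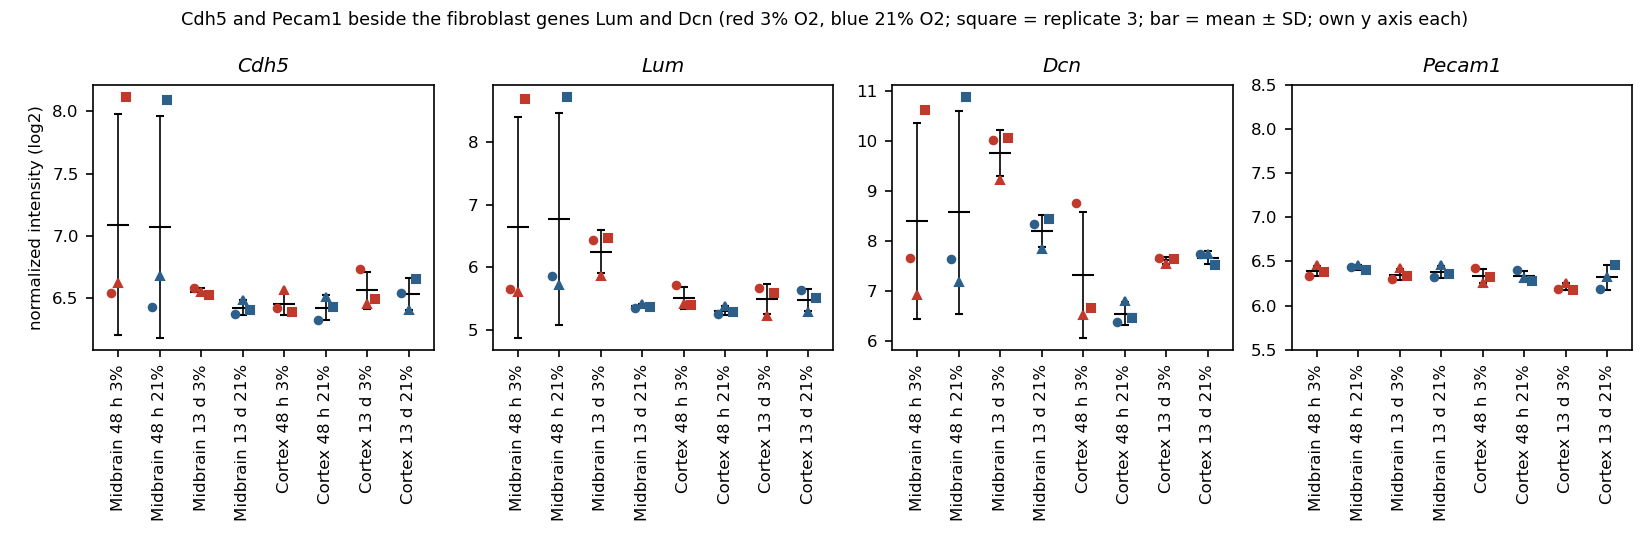
Log2 level on each of the 24 arrays by group of Cdh5, the fibroblast matrix genes Lum and Dcn, and Pecam1 (each panel with its own y axis), with red for 3% O2, blue for 21% O2 and the marker shape for the array number. The number 3 arrays of midbrain at 48 h carry Cdh5 at 8.12 and 8.09 and Lum at 8.68 and 8.72, and Pecam1 shows no such step.

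Between the groups of array run 2, the levels were compared at a single oxygen level. At 21% O2, midbrain at 48 h against cortex labelled 48 h had 4 of 10 members passing, beside 54.8% of all probe sets. Cd93 was lower in midbrain by -1.90 ± 0.32 (adjusted p = 3.46e-05), while Kdr was higher by 0.54 ± 0.10 (adjusted p = 7.43e-05), Esam by 0.24 ± 0.08 and Tie1 by 0.15 ± 0.06. At 3% O2, 3 of 10 passed beside 61.2% of all probe sets, with Cd93 lower by -3.35 ± 0.32 (adjusted p = 1.47e-08), Kdr higher by 0.49 ± 0.10 (adjusted p = 0.000185) and Tie1 lower by -0.14 ± 0.06 (adjusted p = 0.0452). Without the number 3 arrays of midbrain at 48 h only Cd93 and Kdr passed at either oxygen level. The shares of all probe sets were then 51.2% at 21% O2 and 57.9% at 3% O2. The small Tie1 and Esam calls were also lost when single arrays of either group were left out (adjusted p up to 0.201 for Tie1 and 0.112 for Esam). Cd93 and Kdr went in opposite directions between these cultures. Flt1 lay in the direction of Cd93 without passing, at -0.66 ± 0.30 at 21% O2 (adjusted p = 0.0724) and -0.53 ± 0.30 at 3% O2 (adjusted p = 0.14). Without the cortex arrays numbered 1, Flt1 passed at 21% O2 beside Cd93, Kdr, Tie1 and Esam. That made 3 higher and 2 lower members, beside 53.5% of all probe sets. The microglia and macrophage list, myeloid cells being another cell type known to carry Cd93, had a mean of 7.69 to 8.31 per array in midbrain at 48 h and 6.46 to 6.59 in cortex labelled 48 h. The part of these cells in the Cd93 levels was not tested.

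The cortex times, as labelled, were compared in the same way. At 21% O2 the Cd93 level was lower at 13 d than at 48 h by -0.87 ± 0.32 (adjusted p = 0.0397), the 1 member passing beside 37.2% of all probe sets. Without the arrays numbered 1 it was -0.43 ± 0.24 (adjusted p = 0.186) and did not pass, whereas Flt1 then did, at -0.97 ± 0.32 (adjusted p = 0.0199). The Cd93 call was lost when any 1 of 5 of the 6 arrays was left out, with values from -0.90 to -0.43 there. At 3% O2, 2 of 10 passed beside 42.2% of all probe sets, Cd93 at -2.45 ± 0.32 (adjusted p = 2.67e-06) and Tek at -0.15 ± 0.06 (adjusted p = 0.0428). The small Tek difference did not pass without the arrays numbered 1 (-0.11, adjusted p = 0.204).

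Across all 24 arrays the signals of the other endothelial genes did not follow that of Cd93 as a group. Its Pearson correlation was 0.54 with Flt1, 0.35 with Emcn, 0.11 with Tek, 0.03 with Tie1, -0.05 with Cldn5, -0.15 with Esam, -0.21 with Kdr, -0.27 with Pecam1 and -0.35 with Cdh5. The median of these 9 was -0.05, and that of the 23409 other probe sets was 0.07. A correlation above 0.5 was found for 1 of the 9 members (11.1%) and for 16.1% of all other probe sets. The number of probe sets more like Cd93 than Flt1 was 2872, and for Emcn it was 6630. These are descriptions over arrays that share culture conditions and array runs. Cldn5, Esam, Tie1, Tek and Pecam1 covered 0.28 to 0.59, less than the median probe set at 0.72. With so little change in signal, their correlations cannot tell whether their RNA moved with that of Cd93.

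The likeness of Emcn came from a single set of cultures. Over the 6 midbrain 13 d arrays alone Emcn correlated with Cd93 at 0.99, Cdh5 at 0.83, Kdr at 0.80 and Flt1 at 0.72, all of which mostly restate the step between 3% and 21% O2. Over the 18 arrays of run 2 Emcn stood at 0.02 and Flt1 at 0.60. By sets of 6 arrays, Flt1 stood at 0.64 in midbrain at 48 h, -0.29 in cortex labelled 48 h and 0.87 in cortex labelled 13 d. Emcn stood at -0.35, 0.11 and 0.24 in the same sets. Within groups, after the group means were taken out, the values were 0.22 for Emcn and 0.01 for Flt1. Among the members themselves, the highest correlations were 0.75 for Pecam1 and Esam, 0.62 for Kdr and Esam, and 0.61 for Cldn5 and Tie1, of which all but Kdr covered 0.59 or less.

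The genes most like Cd93 were then picked out. By the highest correlation among genes whose group means spanned at least 1 on the log2 scale, they were Igfbp3 (0.95), Apln (0.95), Spry1 (0.95), Oxr1 (0.94), Pmp22 (0.94), Nt5e (0.94), Sec11c (0.93), Usp51 (0.93), Eif4ebp1 (0.92) and Unc5b (0.92). Igfbp3 is a binding protein for insulin-like growth factors, Apln is the peptide apelin, Spry1 an inhibitor of growth factor receptor signalling and Unc5b a netrin receptor. Igfbp3 read 11.79, 11.65 and 11.70 at 3% O2 and 10.13, 10.36 and 10.34 at 21% O2 in midbrain at 13 d, a rise of 1.44 ± 0.17 (adjusted p = 4e-06). Unc5b rose there by 2.26 ± 0.20 and Spry1 by 1.66. All 10 of these genes rose in midbrain at 13 d and in cortex labelled 48 h, the comparisons in which Cd93 rose, and 0 of 10 passed in the other 2. They were chosen for likeness on the same arrays, so this count restates the choice.

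**Figure D4:**
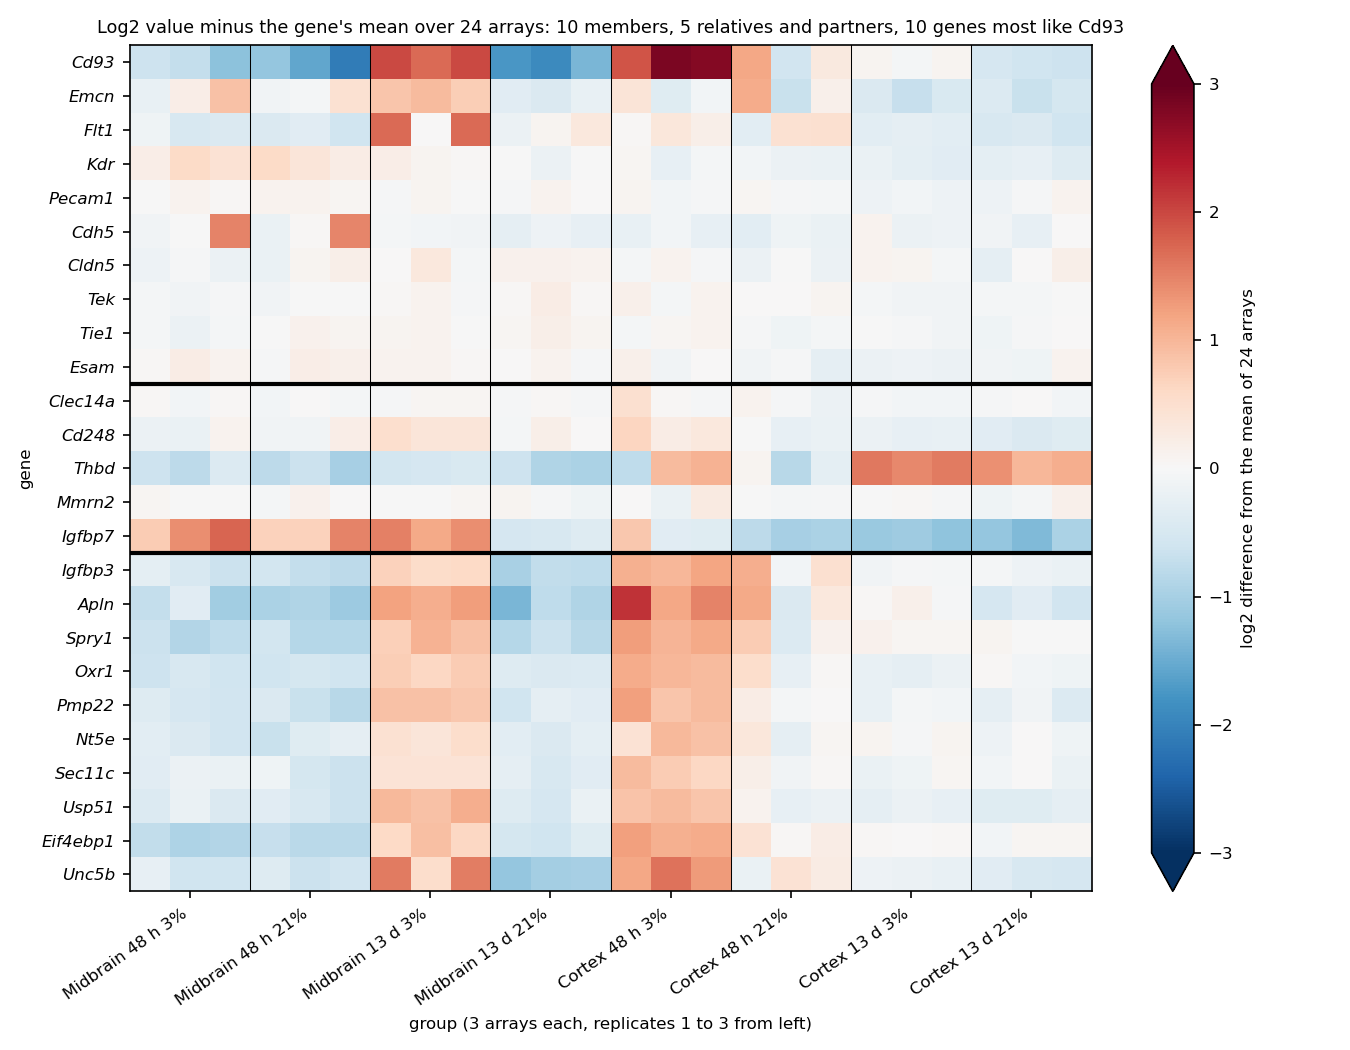
Log2 level minus the mean of the 24 arrays (colour, from -3 in blue to 3 in red) for the 10 endothelial genes, 5 relatives and partners of Cd93 and the 10 genes most like Cd93 in correlation (y axis), on each array by group (x axis). The lower block follows the Cd93 line, red in midbrain 13 d and cortex labelled 48 h at 3% O2, while most endothelial lines stay pale, apart from Emcn, Flt1 on arrays 1 and 3 of midbrain 13 d at 3% O2, and Cdh5 on 2 arrays.

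The relatives and binding partners of Cd93 were examined by name. Clec14a, Cd248 and Thbd belong to the same family of C-type lectin-like receptors, and Mmrn2 and Igfbp7 are matrix proteins that bind Cd93. Clec14a and Mmrn2, which mark endothelium, stayed between 5.61 and 6.26 and between 6.01 and 6.46 on all arrays. Cd248, known from pericytes and fibroblasts, was higher at 3% O2 in midbrain at 13 d by 0.36 ± 0.11 (adjusted p = 0.0151) and in cortex labelled 48 h by 0.54 ± 0.11 (adjusted p = 0.00184). Its arrays read 8.44, 8.29 and 8.30 against 7.87, 8.12 and 7.95 in the first and 8.58, 8.15 and 8.24 against 7.93, 7.68 and 7.73 in the second, apart in both. Igfbp7 rose in midbrain at 13 d by 1.80 ± 0.27 (adjusted p = 3.82e-05), from 7.63, 7.67 and 7.76 at 21% O2 to 9.65, 9.29 and 9.53 at 3% O2. In cortex labelled 48 h it rose by 0.95 ± 0.27 (adjusted p = 0.0226), which was not passed without the arrays numbered 1 (0.62 ± 0.25, adjusted p = 0.112). Of these 5 genes 2 were higher and 0 lower in each of these comparisons, beside 23.9% and 12.3% of all probe sets, and 0 passed in the other 2, beside 1.19% and 0.607%.

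Thbd (thrombomodulin) is the gene next to Cd93 on chromosome 2, with 0 annotated genes between them. It was highest in cortex labelled 13 d, at 9.19, 9.04 and 9.16 at 3% O2 and 8.98, 8.60 and 8.70 at 21% O2, where Cd93 was intermediate. In midbrain at 13 d, where Cd93 rose most, Thbd read 7.04, 7.09 and 7.14 at 3% O2 and 6.98, 6.71 and 6.65 at 21% O2. Every 3% array lay above every 21% array there and in cortex labelled 13 d, but the differences of 0.31 and 0.37 did not pass, nor did any other oxygen difference of Thbd. In cortex labelled 48 h it read 6.84, 8.54 and 8.64 at 3% O2 and 7.69, 6.78 and 7.30 at 21% O2, a difference of 0.75 ± 0.31 (adjusted p = 0.134). The array numbered 1 at 3% O2 was the low one, and without both number 1 arrays the difference was 1.55 ± 0.16 (adjusted p = 2.55e-06). Over the 24 arrays Thbd correlated with Cd93 at 0.29 (rho 0.52). The values were higher within each set of 6 arrays: 0.47 in midbrain at 48 h, 0.81 in midbrain at 13 d, 0.78 in cortex labelled 48 h and 0.90 in cortex labelled 13 d. With the group means taken out the correlation was 0.66.

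Ligands and co-receptors of the VEGF, angiopoietin and apelin pathways were counted next. Of 14 measured, 1 rose in midbrain at 48 h, 5 rose and 2 fell in midbrain at 13 d, 4 rose in cortex labelled 48 h (4 and 2 falling without the arrays numbered 1) and 1 rose in cortex labelled 13 d. The shares of all probe sets that passed in these comparisons were 1.19%, 23.9%, 12.3% and 0.607%. In cortex labelled 48 h the share was 14.8% without the arrays numbered 1. Vegfa, the main VEGF ligand, rose in midbrain at 48 h by 1.50 ± 0.23 (adjusted p = 0.00195), at 13 d by 1.30 and in cortex labelled 13 d by 1.78, and differed by 0.55 in cortex labelled 48 h (adjusted p = 0.126). Vegfa therefore passed in both comparisons in which Cd93 did not, and did not pass in 1 of those in which Cd93 rose. Angpt2, an angiopoietin that binds Tek, rose with Cd93: by 2.25 ± 0.36 in midbrain at 13 d (adjusted p = 9.44e-05) and by 1.58 ± 0.36 in cortex labelled 48 h (adjusted p = 0.00593). Its arrays in midbrain at 13 d were 10.31, 9.65 and 10.25 at 3% O2 against 7.62, 7.80 and 8.04 at 21% O2. Apln rose by 2.20 ± 0.28 and 1.27 ± 0.28 in the same 2 comparisons, and Nrp2, a co-receptor for VEGF ligands, by 1.62 and 0.89. The further call in midbrain at 13 d among the rises was Vegfc at 0.25, and the falls were Pgf at -0.52 and Angptl4 at -0.33. Flt4, the receptor for Vegfc, rose by 0.86 in cortex labelled 48 h (adjusted p = 0.0426), where array 1 at 3% O2 read 8.35 and arrays 2 and 3 read 6.62 and 6.60, against 6.38, 6.32 and 6.30 at 21% O2. Without both arrays numbered 1 the rise was 0.30 ± 0.06 (adjusted p = 0.0022).

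A second list held 29 measured endothelial genes. In midbrain at 48 h and in cortex labelled 13 d 0 of 29 passed, beside 1.19% and 0.607% of all probe sets. In midbrain at 13 d 4 rose and 1 fell (17.2% of the list, below the 23.9% of all probe sets), led by the transcription factor Sox7 at 0.59 (adjusted p = 0.00119), with Mfsd2a, a lipid transporter of the blood-brain barrier, at -0.70 (adjusted p = 0.00543). In cortex labelled 48 h 5 rose and 1 fell (20.7%, beside 12.3% of all probe sets), among them Plvap, a protein of fenestrated vessels, at 0.63 (adjusted p = 0.000607), Ramp2 at 0.46 (adjusted p = 0.00154) and Eng at 1.00 (adjusted p = 0.0193). Without the arrays numbered 1 the counts there were 3 and 1, beside 14.8% of all probe sets. The median correlation of this list with Cd93 over the 24 arrays was 0.20, and 3 of 29 (10.3%, beside 16.1% of all other probe sets) lay above 0.5, Plvap at 0.68, Ramp2 at 0.63 and Egfl7 at 0.52.

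Markers of other cells that such cultures can hold were counted in the comparisons in which Cd93 rose. Of 15 pericyte and fibroblast genes, 8 rose and 0 fell in midbrain at 13 d, beside 23.9% of all probe sets, led by Postn at 2.33 (adjusted p = 6.38e-05), and their mean level per array was 7.71 to 7.98 at 3% O2 against 7.25 to 7.28 at 21% O2. Of the 15, Cspg4 alone passed in cortex labelled 48 h, at 0.41 (adjusted p = 0.0105), beside 12.3% of all probe sets. Without the arrays numbered 1 it was 1 higher and 3 lower, beside 14.8% of all probe sets. Microglia and macrophage genes gave 0 of 15 in midbrain at 13 d, with a list mean of 6.44 to 6.58 at 3% O2 and 6.44 to 6.53 at 21% O2. Of these 15, 1 passed in cortex labelled 48 h, P2ry12 at 0.86 (adjusted p = 0.00148). The 9 members other than Cd93 had a mean of 6.79 to 6.92 at 3% O2 and 6.54 to 6.61 at 21% O2 in midbrain at 13 d, and Emcn and Flt1 had the largest differences among them. Of 10 neuron genes 0 rose and 7 fell in cortex labelled 48 h, with a median difference of -0.69 and a mean level per array of 8.75 to 9.08 at 3% O2 against 9.30 to 9.57 at 21% O2. Without the arrays numbered 1 it was 2 higher and 8 lower, beside 14.8% of all probe sets. In midbrain at 13 d 1 neuron gene rose and 2 fell. Of 10 genes of neural stem cells and radial glia, 1 rose and 3 fell in cortex labelled 48 h, the falls being Hes5 at -1.30, Pax6 at -0.65 and Msi1 at -0.59, and 2 rose and 2 fell in midbrain at 13 d. For the microglia, neuron and stem cell counts too, the shares of all probe sets were 23.9% in midbrain at 13 d and 12.3% in cortex labelled 48 h. The part of any of these lists in the Cd93, Emcn and Flt1 results was not tested.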

How the data were processed

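Biotin-labelled cDNA from total RNA was hybridised to 24 MoGene 1.0 ST arrays, per the labels' protocols. The authors deposited log2 values, which the labels call normalized (4.65 to 14.49, array medians 7.35 to 7.42). How background was corrected and arrays were normalized is not given in the sources used, so a shift common to a whole array would go unseen. Arrays give no depth, and their number limits the precision. The probe annotation named 23410 of 28856 probe sets, 21789 with 1 symbol and 1621 with several. The other 5446 are unnamed here. The gene table matched 70 of 70 named genes, and 121 of 125 listed genes were measured.

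Limma 3.58.1 (R 4.3.3, lmFit and eBayes) fitted 8 group means to 24 arrays with 16 residual degrees of freedom. The 13 comparisons were two-sided, with Benjamini-Hochberg adjustment over 23410 probe sets at 0.05. Likeness to Cd93 is Pearson's r, given without a p. The steps were tested on simulated data. The members, lists and comparisons were chosen with earlier results of these data known. Named genes were the 10 members, the relatives and pathway genes, the 3 smallest p per other list and the 10 genes most like Cd93. The 12 genes of the number 3 arrays, the label-check genes and a few further list members were named after their values were seen.

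Same-numbered midbrain arrays at 3% and 21% O2 deviated together, at r = 0.121, 0.217 and 0.243 for 48 h and r = 0.123, 0.421 and 0.306 for 13 d, all above 0.1. At 13 d, arrays numbered 1 and 3 also did so across numbers, at 0.164 and 0.167. Pairing by number in midbrain was thus read from the data, not the labels, and is less clear at 13 d. The main fit has no block for it, and the replicate block was an alternative. In cortex the same-numbered arrays did not all deviate together. The closest replicates differed with an SD of 0.0904, so no pair was counted as 1 array. The tests were repeated on all probe sets, on the 11705 brighter ones, after quantile normalization or median centring, with a robust variance trend, array weights (estimated gene by gene) or the replicate block, on the compared arrays alone, and with each array left out in turn. Crossed cortex times, omission of the number 1 arrays of cortex labelled 48 h or the number 3 arrays of midbrain at 48 h, and correlations within subsets of arrays were added after seeing the data.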

Additional observations from a re-analysis of the deposited data

Results flagged for a closer look

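Of the 10 endothelial genes and the 5 relatives and partners of Cd93, 7 of 75 differences between oxygen responses (15 genes in 5 comparisons) passed the test of the difference itself. That is 9.33%, within the 4.13% to 15.1% of all probe sets that passed in these comparisons, so the count itself does not stand out. Cd93, the vessel growth receptor, responded more in midbrain at 13 d than at 48 h, by 2.81 ± 0.45 on the log2 scale (adjusted p = 0.000293), and more than in cortex labelled 13 d, by 2.94 ± 0.45 (adjusted p = 0.000203). Igfbp7, a matrix protein that binds Cd93, differed in the same comparisons, by 1.45 ± 0.38 (adjusted p = 0.0117) and 1.79 ± 0.38 (adjusted p = 0.00287). Cd248, a relative of Cd93, responded more in midbrain at 13 d than at 48 h, by 0.46 ± 0.15 (adjusted p = 0.0461), and was not called without the number 3 arrays of midbrain at 48 h (0.45, adjusted p = 0.0524). It responded less in midbrain at 48 h than in cortex labelled 48 h, by -0.63 ± 0.15 (adjusted p = 0.0176). Tie1, the partner of the angiopoietin receptor, differed in that comparison by -0.29 ± 0.08 (adjusted p = 0.0439, from 0.00832 to 0.646 over the alternatives run). Those that involve cortex rest on its time labels, and those that involve midbrain at 13 d cross the array runs.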

How the results depend on the processing

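The Cd93 rise in midbrain at 13 d passed under every alternative run, with leave-one-out values of 3.44 to 3.70, and so did that of Emcn (1.12 to 1.23), except that the brighter probe sets hold only Cd93 of the 10 genes. The count of members there was 1 with them and 2 to 3 with an array left out, with Flt1 at 0.79 to 1.63. In cortex labelled 48 h Cd93 was 1.76 to 2.63 with an array left out. Its compared arrays alone gave a count of 0 and 2.20 for Cd93, not passing, and array weights a count of 2. The compared arrays alone gave 1 in cortex labelled 13 d, with Cd93 passing at 0.61. For midbrain 13 d minus 48 h the responses gave 2 members with array weights, 2 with the replicate block and 1 to 2 with an array left out. For cortex 13 d minus 48 h they gave 1 with brighter probe sets (Cd93 -1.58), 2 with array weights (-1.84), 1 without the number 1 arrays (-2.32), and 0 to 1 with an array left out (-2.01 to -1.15, passing from -2.01 to -1.89). For midbrain minus cortex at 48 h, Cd93 passed with brighter probe sets (-1.45), array weights (-1.67) and without the number 1 arrays (-2.18), ranged from -1.88 to -1.02 with an array left out, and was 0.13 with the cortex times crossed. The count was 0 with median centring, a robust trend, compared arrays alone, the block, crossed times or the number 3 arrays left out, 3 with array weights, 2 without the number 1 arrays and 0 to 2 with an array left out. For midbrain minus cortex at 13 d the counts were 3 with array weights, 2 with compared arrays alone, 2 with the block and 1 to 2 with an array left out. With crossed times, which is the main fit of midbrain 13 d minus cortex 48 h, the count was 0 (Cd93 1.35). For midbrain 13 d minus cortex 48 h, brighter probe sets gave 1 (Cd93 1.35), array weights 4 (1.14), the block 1, the number 1 arrays left out 1 and single arrays left out 0 to 2 (0.92 to 1.79). Level differences at 21% O2 between midbrain and cortex at 48 h gave 1 with brighter probe sets, 7 with array weights, 2 with crossed times, 2 without the number 3 arrays and 2 to 5 with an array left out. At 3% O2 they gave 1 with brighter probe sets, 5 with crossed times and 2 to 4. Between cortex times at 21% O2 they gave 5 with array weights, 2 with the block and 0 to 2, and Cd93 did not pass with compared arrays alone (-0.87) or without the number 1 arrays (-0.43), and ranged from -1.30 to -0.43. At 3% O2 they gave 1 with brighter probe sets, quantile normalization or the number 1 arrays left out, and 1 to 4. The replicate block changed no call of Cd93, and no call of Emcn or Flt1 within an oxygen response. The correlation of all 9 other members with Cd93 had another sign in at least 1 set of 6 arrays than over the 24, as had that of 3 of the 10 most similar genes. Several members lay near 0 over the 24 arrays, where the sign changes easily. The 10 were chosen for a high correlation on these arrays, so these counts cannot be set against each other. The genes with another sign that lay above 0.5 over the 24 arrays were Flt1 (-0.29, cortex labelled 48 h), Oxr1 (-0.73, cortex labelled 13 d), Nt5e (-0.24) and Eif4ebp1 (-0.06, both midbrain at 48 h). Flt1 lay between 0.64 and 0.87 in the other sets. Over 22 arrays, without the number 1 arrays of cortex labelled 48 h, Flt1 was 0.60 and Emcn 0.28. Where an arm kept 2 arrays, the fit pooled the spread over the other groups. Most counts here lack the share of all probe sets under the same setting, so they say nothing particular about the members. Without the number 1 arrays the shares were 10.7% (cortex 13 d minus 48 h), 11.8% (midbrain minus cortex at 48 h) and 12.4% (midbrain 13 d minus cortex 48 h). Between cortex times at 3% O2 that share was 40.5%. Without the number 3 arrays, midbrain minus cortex at 48 h had 3.66% for the responses and 51.2% for levels at 21% O2. The causes of these changes were not tested.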
